A study of Homo sapiens with 6 samples.

Results

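The presynaptic release machinery was examined as 52 named genes, all of which were found by symbol among 16625 genes measured in NGN2-induced human neurons labelled PEDS1 knockout or control. Its members are proteins of the synaptic vesicle membrane, synaptotagmins, fusion (SNARE) proteins and their regulators, Rab3 GTPases with their effectors, scaffolds of the active zone, proteins that retrieve the vesicle after fusion, and synucleins. PolyA RNA was sequenced in 3 libraries labelled PEDS1 knockout and 3 control libraries. Both groups derive from the UCSFi001-A line of induced pluripotent stem cells (iPSCs), carry a doxycycline-inducible NGN2 transgene at the AAVS1 locus, and were grown with doxycycline, BDNF and NT-3 (neurotrophins) and laminin. NGN2 is a transcription factor that turns iPSCs into neurons, and the series text places the neurons at day 10 to 14. PEDS1 encodes the desaturase that introduces the vinyl ether bond of plasmalogens. The labels give 1 knockout line and 1 control line and do not state how the replicates were grown, which may be technical ones. A p-value here therefore measures only the spread between these libraries, and a difference of genotype cannot be told apart from a difference between the 2 lines.

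At a synapse, vesicles are filled with transmitter, tethered at the active zone, primed by assembly of SNARE proteins, and fused when calcium binds synaptotagmin. Their membrane is then retrieved by clathrin, amphiphysin, dynamin and synaptojanin and used again. Most steps are served by families of closely related genes, whose members are used in different proportions by different neurons.

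Recovered read totals were 17996634 to 28773664 in the libraries labelled knockout and 25275584 to 44573013 in control. Summed over the 52 genes, the libraries labelled PEDS1 knockout had 366249.7, 381252 and 397724 normalized counts (replicates 1, 2 and 3), against 367545, 369287 and 369563 in control. Values per library below follow that order. The unit is the authors' normalized count, in which each library's reads are scaled by a single size factor. PEDS1 itself had 836, 765 and 1349 normalized counts in the libraries labelled knockout, against 1360.0, 1347 and 1399 in control. The library labelled knockout replicate 3 therefore lay in the control range for RNA of the targeted gene, unlike replicates 1 and 2. The labels do not describe the edit, so the genotype of this library could not be checked further, and results are also given without it. Exons of PEDS1 share 691 bases with TMEM189-UBE2V1 on the same strand. Pan-neuronal markers summed to 544920 to 574107 normalized counts in the libraries labelled knockout and 495470 to 507663 in control, with 3 of 14 higher and 2 lower. MAP2 had at least 45940.4 normalized counts in the libraries labelled knockout and 39194 in control. TUBB3, a defining neuronal marker, was counted low, at 137, 136 and 202 against 293, 253 and 220. Exon overlaps with other genes were looked up for the 52 genes and PEDS1 but not for TUBB3. Whether its low count reflects little RNA or the way reads were counted was not tested. The 4 measured pluripotency markers summed to 1377 to 1667 normalized counts in the libraries labelled knockout and 840 to 905 in control. Of these 4 markers, 3 passed the threshold as higher. The other 8 listed, POU5F1 and NANOG among them, were not found by symbol among the genes measured. The 9 measured progenitor markers, nearly all NES, summed to 28272 to 31771 against 26233 to 28070 in control, with 3 higher and 1 lower, and the 5 measured mesenchymal markers, nearly all THY1 (a gene neurons also express), to 4577 to 5555 against 5908 to 6230, with 1 higher. The 5 measured astrocyte markers, nearly all SLC1A2, summed to 5481 to 8801 normalized counts against 6222 to 7021 in control, and 13 measured peripheral or cranial neuron markers to 34416 to 41268 against 32340 to 33732, with 6 higher and 2 lower. In bulk RNA fewer cells of a type and less RNA per cell cannot be told apart, and the part of these markers in the results below was not tested.

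Of the 52 genes, 11 rose and 4 fell in the libraries labelled knockout, and 37 did not pass the test (limma across all genes, Benjamini-Hochberg adjusted p under 0.05). Over all genes tested, 13.6% passed, 5.95% as higher and 7.69% as lower, and over the 11705 genes with a mean of 100 normalized counts or more 16% did. All 52 genes had such a mean. The median log2 fold change, taken on log2(normalized count + 1) as are all fold changes below, was 0.06 over the list and -0.01 over all genes. Groups did not overlap in 23 of the 52 genes, 18 of them higher and 5 lower in the libraries labelled knockout, and in 37.1% of all genes (19% higher, 18.2% lower). Without the library labelled knockout replicate 3, 16 rose and 7 fell, among which all 15 genes stood again, where 21.5% of all genes passed, 10.4% as higher and 11.1% as lower. Leaving out control replicate 1 left 3 of the 15 and leaving out control replicate 2 left 4, where 3.75% and 3.5% of all genes passed. With any other library left out, 12 or 13 genes passed, against 11% of all genes when that was the library labelled knockout replicate 1, 9.08% when it was knockout replicate 2 and 11.5% when it was control replicate 3. Over all genes, 18% passed in the authors' deposited table and with DESeq2, 13.5% with edgeR, 13.4% with TMM scaling, 14.2% with quantile scaling, 13.6% and 13.8% with pseudocounts of 0.5 and 5, and 13.9% and 16.8% with mean count filters of 10 and 100. A threshold of 0.01 called 3.85% (1.61% higher, 2.24% lower), a fit with no variance trend 6.65% (2.59% higher, 4.06% lower) and a fit with a block on replicate number 9.38%. RPH3A, VAMP1 and SYT13 alone among the 15 passed with any 1 of the 6 libraries left out. Without the variance trend these 3 genes, SYT9 and DOC2A passed, and the other 10 did not (limma adjusted p = 0.0572 to 0.124).

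**Figure D1:**
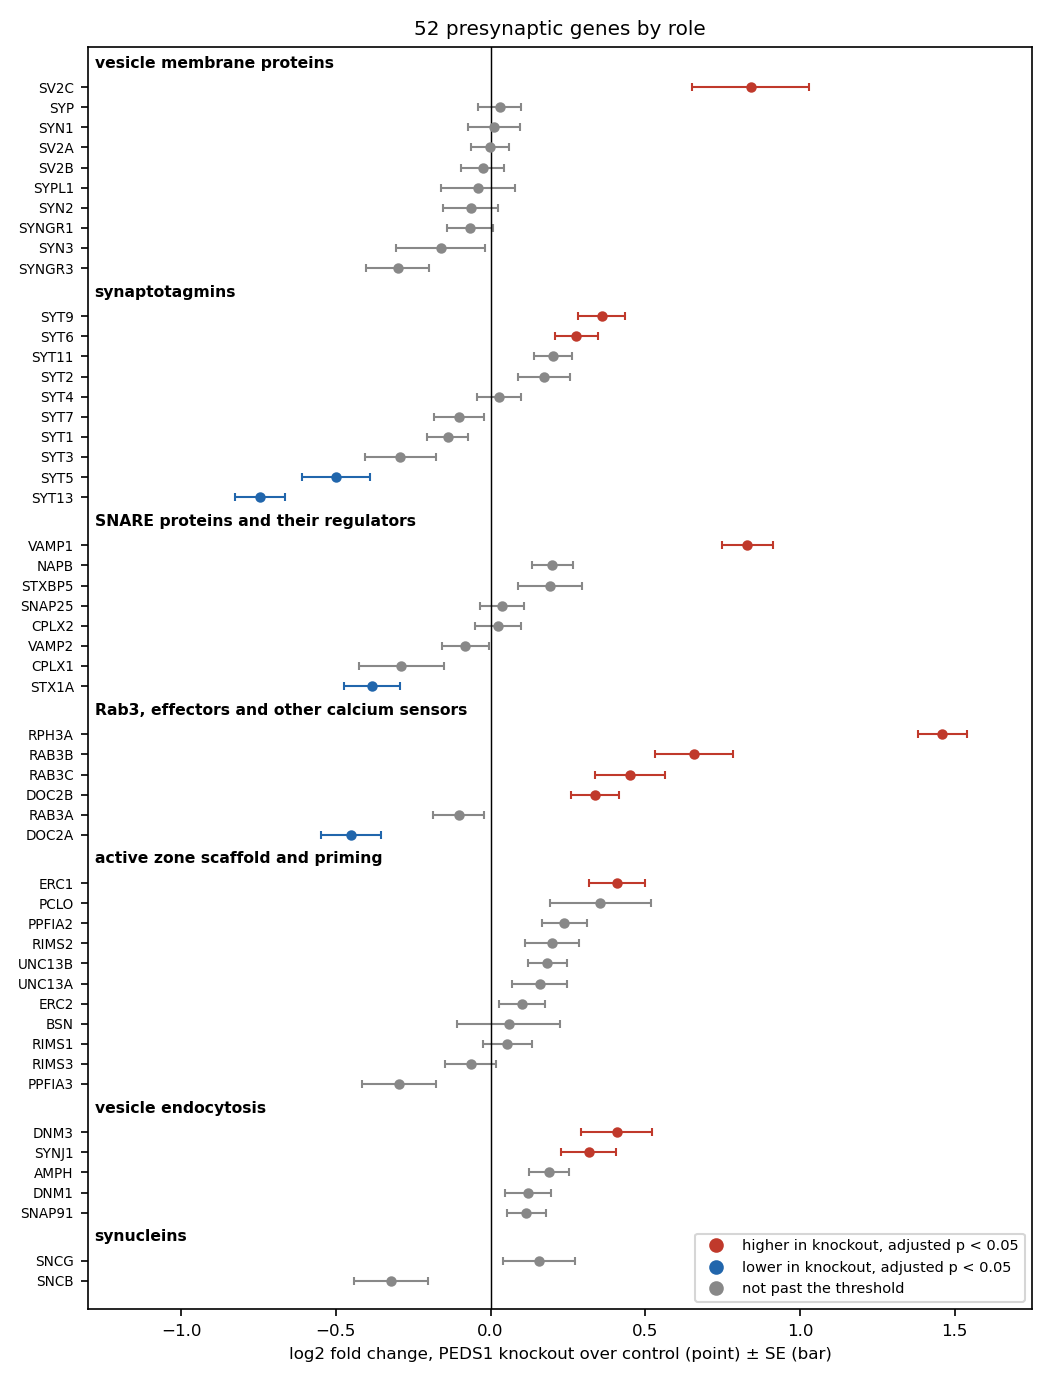
Log2 fold change of PEDS1 knockout over control for each of the 52 genes, grouped by role, with bars for the SE of the limma fit to 3 libraries a group. RPH3A at 1.46 is the highest and SYT13 at -0.75 the lowest, and the widest separations within a role are between RPH3A and DOC2A and between VAMP1 and STX1A.

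Promoter sequences are shown for the gene with the largest change, for the pair of SNARE genes that moved in opposite directions, and for SYN1, whose level was even between the groups. They are RefSeq sequences on GRCh38.p14, covering 250 bases before to 50 bases after a transcript start, read 5′ to 3′ on the gene's strand. Capitals mark matches on either strand to the CCAAT box (CCAAT), the GC box bound by Sp1 (GGGCGG), the cAMP response element (TGACGTCA), an E-box of the kind that NGN2 binds (CAGATG) and the left part of the RE1 element of the neuronal repressor REST (TTCAGCACC). RPH3A has 3 starts in the table, and the most upstream is shown.
RPH3A, chr12:112574986-112575285, plus strand: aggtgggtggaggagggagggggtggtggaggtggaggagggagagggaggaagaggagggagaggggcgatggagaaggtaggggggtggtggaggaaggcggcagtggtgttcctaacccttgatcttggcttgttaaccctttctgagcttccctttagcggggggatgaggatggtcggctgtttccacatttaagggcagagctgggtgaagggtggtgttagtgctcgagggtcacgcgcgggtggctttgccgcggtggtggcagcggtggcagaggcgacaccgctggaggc
VAMP1, chr12:6470628-6470927, minus strand: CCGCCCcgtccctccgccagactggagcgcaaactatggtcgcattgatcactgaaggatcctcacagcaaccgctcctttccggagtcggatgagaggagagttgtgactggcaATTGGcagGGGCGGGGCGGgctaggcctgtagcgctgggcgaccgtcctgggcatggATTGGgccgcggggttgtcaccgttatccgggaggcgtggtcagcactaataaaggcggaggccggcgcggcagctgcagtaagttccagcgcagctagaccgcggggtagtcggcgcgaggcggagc
STX1A, chr7:73719620-73719919, minus strand: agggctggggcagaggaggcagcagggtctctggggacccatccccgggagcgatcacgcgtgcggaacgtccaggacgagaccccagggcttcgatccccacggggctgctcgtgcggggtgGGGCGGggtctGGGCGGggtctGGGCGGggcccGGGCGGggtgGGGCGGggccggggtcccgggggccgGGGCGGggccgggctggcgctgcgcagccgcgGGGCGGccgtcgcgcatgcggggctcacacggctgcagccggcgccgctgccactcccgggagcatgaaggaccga
SYN1, chrX:47619808-47620107, minus strand: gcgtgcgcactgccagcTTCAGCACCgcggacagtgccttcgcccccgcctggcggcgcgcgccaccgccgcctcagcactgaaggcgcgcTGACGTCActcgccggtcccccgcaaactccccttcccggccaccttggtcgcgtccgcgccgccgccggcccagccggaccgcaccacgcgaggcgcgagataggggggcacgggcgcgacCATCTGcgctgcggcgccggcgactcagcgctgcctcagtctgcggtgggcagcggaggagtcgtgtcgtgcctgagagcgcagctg

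The RPH3A window shown held none of the 5 motifs, while of its other windows one held 2 CCAAT boxes and the other 1 CCAAT box and 1 GC box. The VAMP1 window held 2 CCAAT boxes and 3 GC boxes, of which 1 pair overlapped, and the STX1A window held 7 GC boxes. The SYN1 window held 1 cAMP response element, 1 E-box and 1 RE1 match. The table had 70 promoters of 43 member genes. GC boxes were found in 67.1% of them and in 45.0% of all 35116 promoters, CCAAT boxes in 18.6% and 34.6%, and E-boxes in 17.1% and 14.7%. RE1 matches were found in 2 of the 70 (2.86%, against 0.376%) and cAMP response elements in 1 (1.43%, against 1.85%). None of these RE1 or cAMP element matches was in a promoter of a gene that rose or fell. Of 17 promoters of genes that rose, 13 held a GC box and 4 a CCAAT box, as did 3 and 1 of 3 promoters of genes that fell. A match is a run of letters and not a site shown to be bound.

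RPH3A had the largest change of the list. It encodes rabphilin, a C2-domain protein that binds RAB3 and RAB27 on the vesicle and SNAP25 at the plasma membrane. RPH3A (ENSG00000089169, chromosome 12, 112570380 to 112898881, plus strand, GRCh38) had 1582, 1808 and 1689 normalized counts in the libraries labelled knockout, against 615, 616 and 609.9 in control. Every library labelled knockout, replicate 3 included, stood far above every control. The log2 fold change was 1.46 ± 0.08 (SE, limma adjusted p = 6e-06), and it lay between 1.41 and 1.51 with any 1 library left out. It was the only member to change by 2-fold or more.

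The Rab3 GTPases sit on the vesicle and are bound by rabphilin and RIM. RAB3A, the main form in brain, had 5368, 6006 and 5501 normalized counts in the libraries labelled knockout and 6489.5, 6191 and 5469.6 in control, with overlapping groups (log2 fold change -0.10, 95% interval -0.29 to 0.08, limma adjusted p = 0.418). RAB3B had 6099, 6643 and 8961 counts in the libraries labelled knockout, against 4344, 4429 and 4807 in control (0.66 ± 0.13 SE on the log2 scale, limma adjusted p = 0.00978). RAB3C had 4734, 4589 and 6323 counts, against 3617, 3737 and 3982 in control (0.45 ± 0.11 SE, limma adjusted p = 0.0299). For both genes the groups did not overlap and the library labelled knockout replicate 3 was the highest of all. Without it the log2 fold changes were 0.49 and 0.30 (limma adjusted p = 0.0013 and 0.0073). The call of RAB3B was lost without control replicate 1 (limma adjusted p = 0.0549), and that of RAB3C without any 1 control (0.0524 to 0.132). Per kilobase of exon, RAB3A made up 76.3% ± 3.87 of the summed level of these 3 genes in the libraries labelled knockout and 83.5% ± 1.95 in control, and RAB3B 11.6% ± 2.00 and 7.48% ± 0.907 (SD, n = 3 each).

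DOC2A and DOC2B encode high-affinity calcium sensors linked to spontaneous and asynchronous release, and they moved in opposite directions. DOC2B, the more abundant, had 11383, 13074 and 13125 normalized counts in the libraries labelled knockout, against 10271, 9960.4 and 9462 in control (log2 fold change 0.34 ± 0.08 SE, limma adjusted p = 0.0198). DOC2A had 370.4, 376 and 363 counts, against 544, 531 and 448 in control (-0.45 ± 0.10 SE, limma adjusted p = 0.0163). Neither gene had overlapping groups, and without the library labelled knockout replicate 3 the log2 fold changes were 0.30 and -0.44 (limma adjusted p = 0.0137 and 0.0154). Per kilobase, DOC2A fell to 7.33% ± 0.586 of the summed level of the pair in the libraries labelled knockout, against 12.0% ± 0.694 in control (SD, n = 3 each). Both calls were lost without control replicate 1 and without control replicate 2, and that of DOC2B also without control replicate 3 or the library labelled knockout replicate 2 (limma adjusted p = 0.0602 to 0.101 over these fits). Exons of DOC2A share 285 bases with INO80E on the other strand. Exons of VAMP1 share 82 bases with TAPBPL and those of SYT13 share 135 bases with the antisense gene AC103681.1, also on the other strand. Larger overlaps on the other strand were those of SYT2 with PPP1R12B (2111 bases) and of PPFIA2 with ACSS3 (1686 bases). On the same strand, exons of VAMP2 share 430 bases with AC129492.3, those of SYN1 297 with AL009172.2 and those of SYT7 49 with AP003559.1. No source used here states whether counting was by strand.

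**Figure D2:**
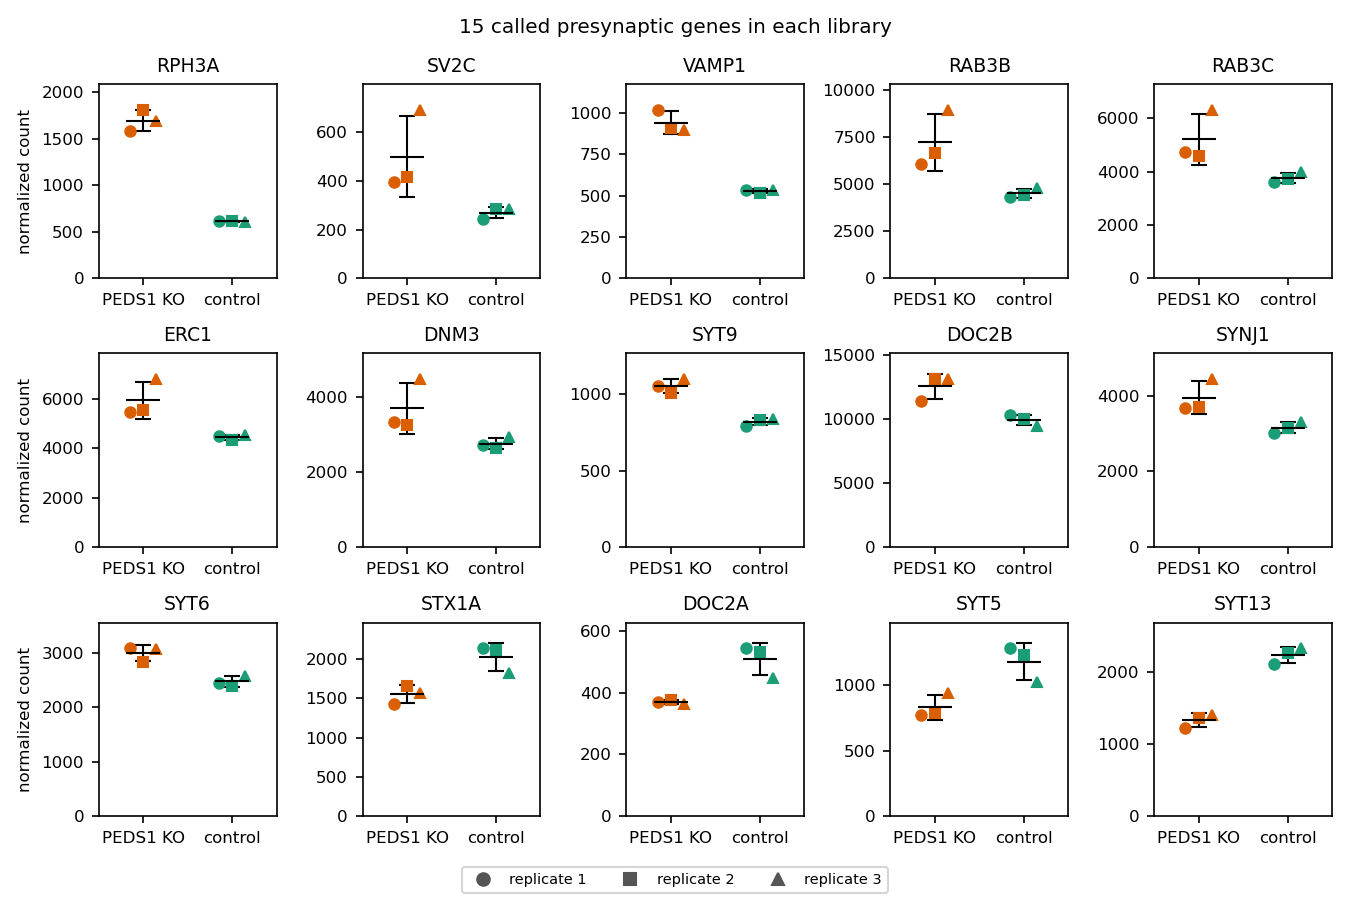
Normalized counts per library for the 15 genes past the threshold, the PEDS1 knockout group left of control in each panel, with marker shapes for replicates 1 to 3 and bars for the mean ± SD. The groups are apart in all 15 panels, and the triangle of knockout replicate 3 is the highest point for SV2C, RAB3B, RAB3C, ERC1, DNM3, SYNJ1, SYT9 and DOC2B.

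Among the SNARE proteins and their regulators, 1 of 8 rose and 1 fell (25%, where 13.6% of all genes passed). VAMP1 and VAMP2 (synaptobrevins) are the vesicle SNAREs and targets of tetanus and botulinum toxins, while STX1A and SNAP25 are their partners in the plasma membrane. VAMP1 (ENSG00000139190, chromosome 12, 6462237 to 6470987, minus strand, GRCh38) had 1018, 907 and 897 normalized counts in the libraries labelled knockout, against 534, 515 and 536 in control. The groups were far apart in relation to their spread, and the log2 fold change was 0.83 ± 0.08 (SE, limma adjusted p = 0.000316), 0.86 without the library labelled knockout replicate 3. VAMP2 had 17886, 17808 and 15198 counts in the libraries labelled knockout and 17743, 17873 and 18078 in control, with a 95% interval of its log2 fold change of -0.25 to 0.09. Per kilobase VAMP1 rose to 5.12%, 4.61% and 5.30% of the summed VAMP1 and VAMP2 level in the libraries labelled knockout, against 2.77%, 2.66% and 2.73% in control, so VAMP2 remained the main form in every library.

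STX1A (ENSG00000106089, chromosome 7, 73699206 to 73719672, minus strand, GRCh38) was the SNARE gene that fell. It had 1428, 1651 and 1568 normalized counts in the libraries labelled knockout, against 2137, 2116 and 1812 in control. All libraries labelled knockout lay below all controls, but the gap to control replicate 3 was narrow. The log2 fold change was -0.38 ± 0.09 (SE, limma adjusted p = 0.0226), with -0.39 when the library labelled knockout replicate 3 was omitted. The call was lost when the library labelled knockout replicate 1, control replicate 1 or control replicate 2 was omitted (limma adjusted p = 0.0601 to 0.128) and with each library's trends on GC content and length removed, which brought it to -0.15 on the log2 scale (limma adjusted p = 0.0788).

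The remaining SNARE genes did not pass. SNAP25 had 7591, 7429.7 and 6674 normalized counts in the libraries labelled knockout and 6973, 6972 and 7177 in control (log2 fold change 0.04, 95% interval -0.12 to 0.19). CPLX2, the main complexin here, had 23089, 25238 and 25983 counts in the libraries labelled knockout and 25564, 24505 and 22973 in control, and CPLX1 had 672, 887 and 846 against 1164, 955 and 829. Complexins clamp the assembled SNARE complex until calcium arrives. NAPB, an adaptor that brings the ATPase NSF to spent SNARE complexes, had 13531, 12947 and 13895 counts, against 11265, 11744 and 12163 in control. Its groups did not overlap, but it missed the threshold (limma adjusted p = 0.0708) and passed in the authors' deposited table. STXBP5 (tomosyn), which holds back SNARE assembly, had a log2 fold change of 0.19 (limma adjusted p = 0.232).

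Of the 10 synaptotagmins, 2 rose and 2 fell (40%, where 13.6% of all genes passed). SYT1 and SYT2 are fast calcium sensors of release, SYT7 is a slower one, and SYT4, SYT11 and SYT13 lack part or all of the residues that bind calcium. SYT13 (ENSG00000019505, chromosome 11, 45240301 to 45286319, minus strand, GRCh38) had 1229.5, 1369 and 1414 normalized counts in the libraries labelled knockout, against 2117, 2269 and 2341 in control. The log2 fold change was -0.75 ± 0.08 (SE, limma adjusted p = 0.00049), and it stayed between -0.79 and -0.69 with any 1 library left out. SYT5 had 769.7, 785 and 941 counts in the libraries labelled knockout, against 1283, 1229 and 1022 in control, with groups close together at the library labelled knockout replicate 3 and control replicate 3 (-0.50 ± 0.11 SE, limma adjusted p = 0.0181). SYT9, in mice a fast sensor, had 1053, 1002 and 1097 counts, against 791, 827 and 836 in control (0.36 ± 0.08 SE, limma adjusted p = 0.0149). SYT6, which acts in exocytosis of the sperm acrosome, had 3086, 2825 and 3073 counts, against 2441, 2393 and 2575 in control (0.28 ± 0.07 SE, limma adjusted p = 0.031). Without the library labelled knockout replicate 3 the log2 fold changes were -0.59 for SYT5, 0.33 for SYT9 and 0.26 for SYT6. The calls of SYT5, SYT6 and SYT9 were each lost without control replicate 1 or control replicate 2, that of SYT5 also without the library labelled knockout replicate 2 and that of SYT6 without the one labelled replicate 1 (limma adjusted p = 0.0524 to 0.177 over these fits).

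SYT1 had the highest normalized count of all members, 58829, 59124 and 61534 in the libraries labelled knockout against 63212, 65608 and 68806 in control. Its groups did not overlap, but the log2 fold change of -0.14 missed the threshold (95% interval -0.29 to 0.01, limma adjusted p = 0.183). SYT11 had 16479.5, 16626 and 16488 counts in the libraries labelled knockout and 14052, 14363 and 14718 in control, just short of the threshold (log2 fold change 0.20, limma adjusted p = 0.0541). The authors' deposited table gave it an adjusted p of 0.021. SYT2, SYT3, SYT4 and SYT7 had log2 fold changes of 0.17, -0.29, 0.03 and -0.10, none past the threshold. Per kilobase, SYT1 made up 49.9% ± 0.479 of the summed level of the 10 synaptotagmins in the libraries labelled knockout and 53.4% ± 0.688 in control, SYT4 18.1% ± 0.778 and 17.3% ± 0.229, and SYT11 14.1% ± 0.493 and 11.9% ± 0.0805 (SD, n = 3 each).

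Among proteins of the vesicle membrane 1 of 10 rose and 0 fell (10%, under the 13.6% of all genes). SYP (synaptophysin), the abundant vesicle protein used to mark terminals, had 25221, 27107 and 23987 normalized counts in the libraries labelled knockout and 24716, 25402 and 24601 in control (log2 fold change 0.03, 95% interval -0.12 to 0.18). SYN1, a synapsin that holds vesicles in the reserve pool, had 2207, 2117 and 1831 counts in the libraries labelled knockout and 2068, 2024 and 1999 in control (0.01, 95% interval -0.17 to 0.20). For SYN1 the libraries labelled knockout lay on either side of the controls, and for SYP replicate 1 lay among the controls, replicate 2 above and replicate 3 below them. SV2A, the vesicle glycoprotein to which the antiepileptic levetiracetam binds, had 18394, 19173 and 18583 counts against 18625, 18825 and 18769, with a 95% interval of -0.14 to 0.13. SV2B, SYN2, SYN3, SYPL1, SYNGR1 and SYNGR3 had log2 fold changes between -0.30 and -0.03.

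SV2C was the vesicle membrane gene that rose. It had 394, 416 and 693 normalized counts in the libraries labelled knockout, against 244, 285 and 283 in control, with the library labelled knockout replicate 3 far above the rest. The log2 fold change was 0.84 ± 0.19 (SE, limma adjusted p = 0.019), and without that library it was 0.58 (limma adjusted p = 0.00561). The call was lost without control replicate 1 or control replicate 2 (limma adjusted p = 0.0570 to 0.0918). SV2C had the lowest level per kilobase of all members, and it made up 0.859% ± 0.274 of the summed SV2 level in the libraries labelled knockout and 0.465% ± 0.0355 in control (SD, n = 3 each).

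**Figure D3:**
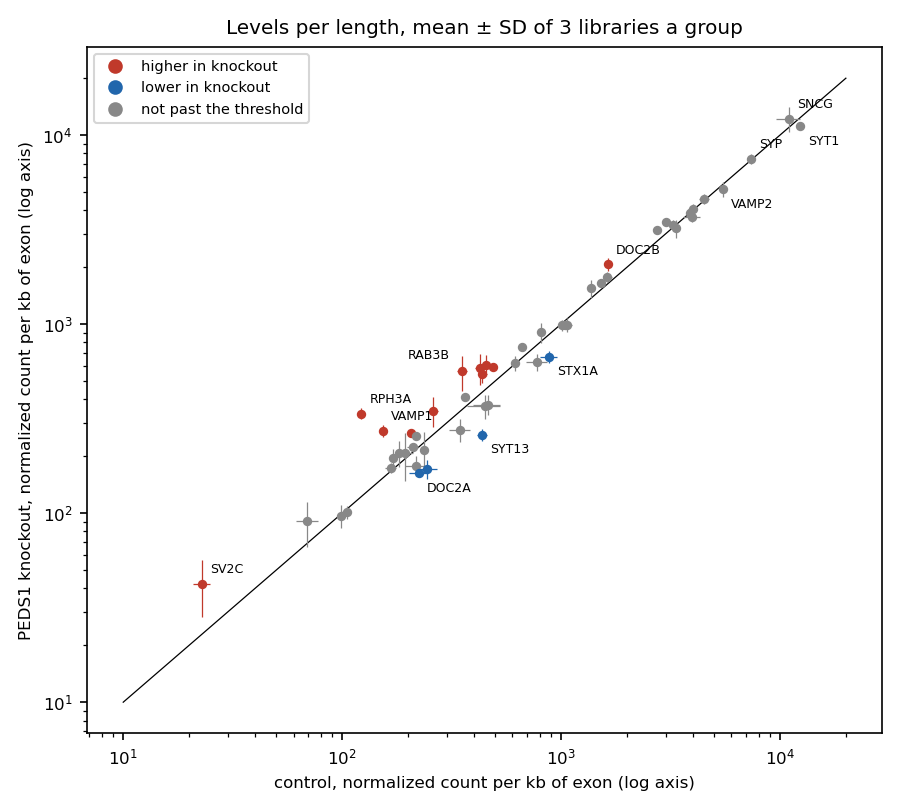
Mean normalized count per kilobase of annotated exon in PEDS1 knockout (vertical) against control (horizontal), both on log axes, with SD bars over 3 libraries and the line of equal levels. SYT1, SNCG, SYP and VAMP2 sit at the top close to the line, and the genes far from the line are at lower levels, RPH3A and SV2C among them.

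Levels per kilobase spanned a wide range and kept much the same order in both groups. SYT1 and SNCG were the highest, at 11185 ± 278 and 12226 ± 1784 normalized counts per kilobase in the libraries labelled knockout and 12315 ± 525 and 10956 ± 1397 in control (SD, n = 3 each), and the 2 genes overlapped in control. SYP followed at 7506 ± 464 in the libraries labelled knockout and 7349 ± 128 in control, VAMP2 at 5191 ± 468 and 5477 ± 51.8, and CPLX2 at 4586 ± 278 and 4508 ± 241, with no overlap between these neighbours in control. PCLO, at 90.5 ± 24.6 and 69.4 ± 7.77, and SV2C, at 42.3 ± 14.1 and 22.9 ± 1.96, were the lowest in both groups. RPH3A stood at rank 34 of 52 in the libraries labelled knockout and at rank 48 in control, and VAMP1 at 36 and 47, while SYT13 stood at 38 and 30 and SYT5 at 47 and 36.

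At the active zone 1 of 11 genes rose and 0 fell. That is 9.09%, under the 13.6% of all genes and the 16% of genes with a mean of 100 normalized counts or more. ERC1 (ELKS), a coiled-coil scaffold that binds RIM, had 5456, 5538 and 6804 normalized counts in the libraries labelled knockout, against 4487, 4332 and 4520.2 in control (log2 fold change 0.41 ± 0.09 SE, limma adjusted p = 0.0173). All libraries labelled knockout were higher than all controls, and the log2 value was 0.31 with the one labelled replicate 3 left out (limma adjusted p = 0.00372). The call was lost without control replicate 1 or control replicate 2 (limma adjusted p = 0.0768 to 0.0956). ERC2, its relative, had 1412, 1379 and 1478 counts against 1267, 1306 and 1406, with overlapping groups.

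RIMS1, the central scaffold that joins Rab3, UNC13A and calcium channels, had 1456, 1604 and 1633 normalized counts in the libraries labelled knockout and 1414, 1533 and 1574 in control (log2 fold change 0.05, 95% interval -0.12 to 0.23). RIMS3, a short RIM, was the most abundant of the 3 RIM genes listed and had 21834, 21626 and 26174 counts against 23899, 24188 and 24399.9. Its direction without the library labelled knockout replicate 3 was lower and past the threshold (-0.15, limma adjusted p = 0.0339). UNC13A (Munc13-1), the priming factor that opens syntaxin, had 7985, 9168 and 10184 counts in the libraries labelled knockout and 8240.4, 7869 and 8278 in control (0.16, 95% interval -0.04 to 0.36). UNC13B had 7099, 7501 and 7451 counts against 6313, 6419 and 6680.0, with no overlap and a limma adjusted p of 0.0832. PPFIA2, a liprin-alpha scaffold, had 1587, 1669 and 1762 counts against 1412, 1428 and 1409, also without overlap (limma adjusted p = 0.0531), while the authors' deposited table gave 0.0317. RIMS2, a second RIM, and PPFIA3, a second liprin-alpha, had log2 fold changes of 0.20 and -0.30, neither past the threshold. BSN and PCLO, the giant scaffolds bassoon and piccolo, did not pass and spread widely among the libraries labelled knockout. BSN had 2481, 3099 and 4334 counts, against 3374, 2829.6 and 3086 in control, and PCLO had 1616, 1858 and 2679 against 1557, 1406 and 1757.

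Of the 5 genes of vesicle retrieval 2 rose and 0 fell (40%, where 13.6% of all genes passed). All 5 had positive log2 fold changes, as did 8138 of the 16625 genes, but among 35 other measured genes of vesicle endocytosis 15 were positive and 20 negative, with a median of -0.06, 2 higher and 2 lower past the threshold. SYNJ1, the phosphatase that removes phosphoinositides so that clathrin coats come off, had 3666, 3709 and 4441 normalized counts in the libraries labelled knockout, against 3006, 3149 and 3304 in control (0.32 ± 0.09 SE, limma adjusted p = 0.0396). DNM3, a dynamin that cuts the vesicle neck, had 3343, 3266 and 4489.6 counts, against 2719, 2634 and 2935 in control (0.41 ± 0.12 SE, limma adjusted p = 0.0438). For both genes the groups were apart and the library labelled knockout replicate 3 stood well above the other libraries labelled knockout. Without it the log2 fold changes were 0.23 and 0.26 (limma adjusted p = 0.0214 and 0.0166). Both calls were lost without any 1 control, and that of SYNJ1 also without the library labelled knockout replicate 2 (limma adjusted p = 0.0558 to 0.172 over these fits). SNAP91 (AP180, a clathrin adaptor), DNM1 and AMPH (amphiphysin) had log2 fold changes of 0.12, 0.12 and 0.19, none past the threshold. The summed counts of the 5 genes were 25818, 26876 and 29204 in the libraries labelled knockout, against 23984, 23825 and 23906 in control.

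Neither synuclein passed. SNCG had 8417, 11083 and 9072 normalized counts in the libraries labelled knockout and 9495, 8757 and 7353 in control, so its groups overlapped widely. SNCB had 405, 515 and 416 counts, against 609, 573 and 488 in control (log2 fold change -0.32 ± 0.12 SE, limma adjusted p = 0.0980), and its groups overlapped at the library labelled knockout replicate 2.

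**Figure D4:**
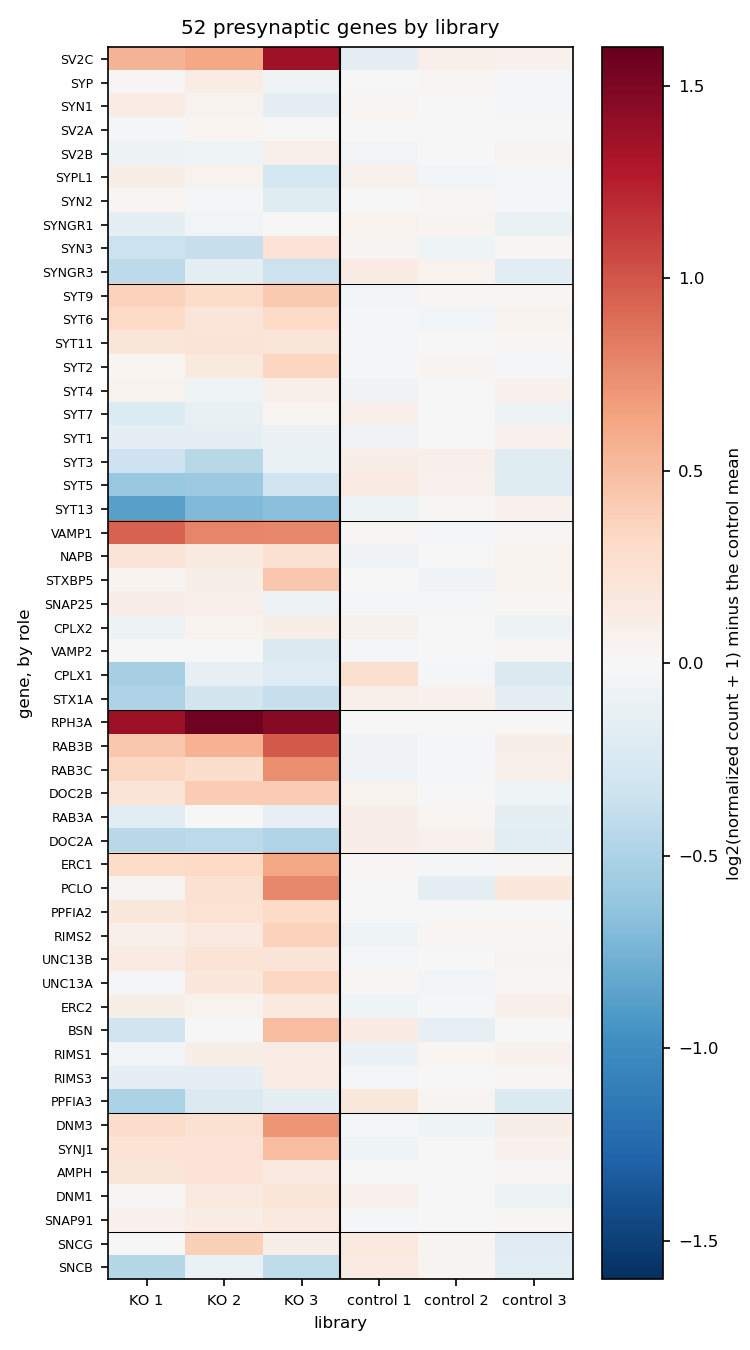
Each gene's log2(normalized count + 1) in each library minus its control mean, with genes in rows by role and the PEDS1 knockout libraries left of control. RPH3A, VAMP1 and SYT13 are nearly uniform across the knockout libraries, while SV2C, RAB3B, PCLO, BSN and DNM3 are deepest in knockout replicate 3.

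The library labelled knockout replicate 3 held the highest value of the 6 libraries in 25 of the 52 genes and the lowest in 7, against 27.6% and 23.3% of all genes. It was the highest in 8 of the 11 genes that rose. In each of these 11 genes a library labelled knockout was the highest, and the like share over all genes that rose was not computed. Its value lay in the control range in 7 of the 52, against 23.5% of all genes. The median SD of log2 values within a group was 0.12 among the libraries labelled knockout and 0.06 among controls over the list, and 0.16 and 0.09 over all genes. Over the 11705 genes with a mean of 100 normalized counts or more, as all 52 had, it was 0.13 and 0.07. Without that library, AMPH, NAPB, PPFIA2, SYT11 and UNC13B passed as higher and SYN3, SYT3 and RIMS3 as lower, beside the 15 genes named above. SYN3 had 587, 575 and 871 normalized counts in the libraries labelled knockout, against 768, 712 and 753 in control, so that replicate 3 stood above and the other libraries labelled knockout below all controls.

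GC content of the longest annotated transcript had a median of 48.8% in the 11 genes that rose (37.7% to 58.7%) and 58.2% in the 4 that fell (47.9% to 60.2%), with a median of 50.4% over the list. Over all genes the medians were 43.2% in those that rose and 56.9% in those that fell. Across the 52 genes the log2 fold change went with lower GC content, with a Pearson correlation of -0.40 and a Spearman correlation of -0.52, and across 16046 genes with -0.34 and -0.41. These are correlations across genes of the same 6 libraries, and genes are not independent replicates. SYT13, at 47.9% GC, fell in spite of a GC content below the list's median, and DOC2B, at 58.7%, rose. After removal of each library's trends on GC content and on length, 14 of the 15 genes passed in the same direction, and AMPH, DNM1, NAPB, SNCG and SYP passed as higher and SV2B and SYT1 as lower, where 19.9% of all genes passed, 10.9% as higher and 9.04% as lower. RPH3A, VAMP1 and SYT13 had log2 fold changes of 1.44, 0.91 and -0.80 there, and RAB3B, RAB3C, DNM3, SYNJ1 and DOC2A had 0.49, 0.27, 0.22, 0.18 and -0.22. ERC1, SV2C, SYT5, SYT6, SYT9 and DOC2B had 0.29, 0.68, -0.41, 0.25, 0.37 and 0.44, and STX1A, no longer past the threshold, had -0.15 (limma adjusted p = 0.0788).

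**Figure D5:**
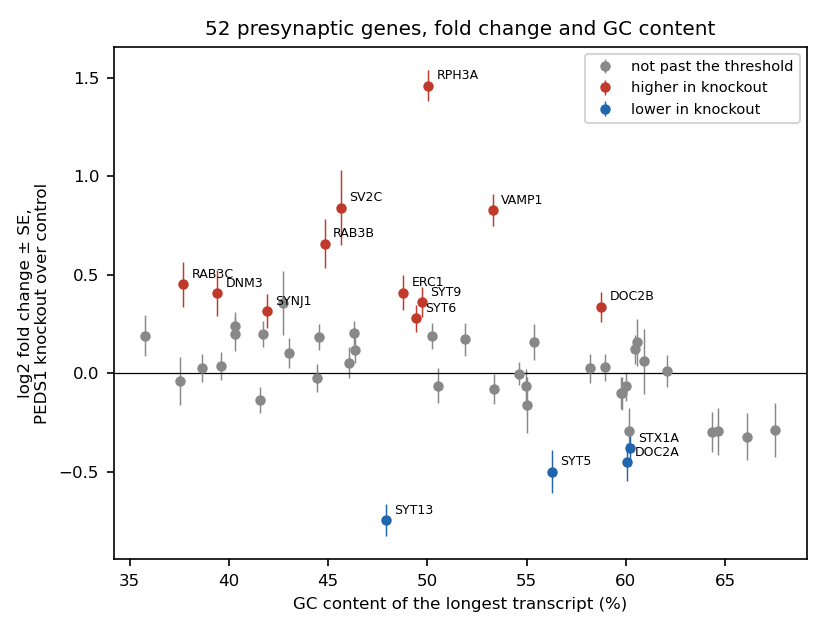
Log2 fold change (PEDS1 knockout over control, with SE bars) against GC content of the longest annotated transcript in percent, 1 point per gene. The 4 genes of highest GC content all lie below 0 without passing the threshold, and SYT13 at 47.9% and DOC2B at 58.7% stand against the trend.

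Of 106 measured genes on a second list of presynaptic proteins, 15 rose and 5 fell, which is 18.9% where 13.6% of all genes passed, with a median log2 fold change of 0.01. SLC17A7, the vesicular glutamate transporter VGLUT1, had 6512, 6439 and 6761 normalized counts in the libraries labelled knockout, against 4710.3, 4632 and 4104 in control (0.55 ± 0.07 SE, limma adjusted p = 0.00154). SYNPR (synaptoporin), a relative of synaptophysin, had 212, 226 and 231 counts, against 133, 124 and 136 in control (0.76 ± 0.10 SE, limma adjusted p = 0.00192). Both genes passed with any 1 library left out. RAB27B, another GTPase that binds rabphilin, rose by a log2 fold change of 0.52. The clathrin heavy chain gene CLTC rose by 0.35 and the scaffold gene LIN7A by 0.42. SYTL4, at 34.6 to 43.3 counts in the libraries labelled knockout and 14.2 to 23.9 in control, rose by 1.14 (limma adjusted p = 0.0101 to 0.0161 over these 4). RAB27A, the relative of RAB27B, had a log2 fold change of -0.29 with overlapping groups (limma adjusted p = 0.240). Genes that fell included the amphiphysin relative BIN1 (-0.41), the Rab3 exchange factor gene RAB3IL1 (-0.68), UNC13C (-0.47) and SYT12 (-0.84), the last at 20.2 to 29.4 counts in the libraries labelled knockout and 33.9 to 48.7 in control. The calls of RAB27B, CLTC, LIN7A and SYTL4 and of these 4 genes were each lost without control replicate 1, and all but that of SYTL4 without control replicate 2. With GC and length trends removed BIN1 had -0.12 and RAB3IL1 -0.36, neither past the threshold, and UNC13C did not pass in the authors' deposited table (adjusted p 0.0613). Of the 20 genes called here, 2 were left when control replicate 1 was omitted and 3 when control replicate 2 was, while omitting a library labelled knockout gave 13 calls for replicate 1, 10 for replicate 2 and 32 for replicate 3.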

How the data were processed

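PolyA RNA of 6 libraries was sequenced as stranded, single-end 100 base reads from 500 ng of RNA, per the labels' protocols, under 1 batch label. STAR 2.7.10b, DESeq2 and the build GRCh38 are named in the submitters' processing notes, without a counting tool or annotation. The deposited signal values are normalized counts, reads scaled by a size factor. In each library 100% of these values were whole multiples of 1 step (tolerance 1e-06), so whole reads were recovered. The authors deposited log2 fold changes and p-values as well, with the adjusted p-value empty in 1612 genes. A second sheet repeats 344 of the genes with the same values and was not used.

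Genotype was fitted with limma 3.58.1 (R 4.3.3) on log2(normalized count + 1) with a variance trend over all 16625 genes, and p-values were Benjamini-Hochberg adjusted over all of them. The code was tested on simulated data. Exon lengths, coordinates and GC content came from GENCODE 29 (96.5% of genes matched), and levels between genes are per kilobase of merged exon. Members, lists and naming rules were chosen with earlier results of these data known. The naming rule gave values per library to genes past the threshold and to SYP, SYN1, SYT1, VAMP2, SNAP25, STX1A, RAB3A, RIMS1 and UNC13A, and named up to 6 genes in each direction from the second presynaptic list. From that list 1 gene that the rule names is not reported here. Its last clause, on genes correlated with RPH3A, was not used because the libraries fall into 2 groups. Other genes are named by role. Replicate pairs differed by more than sampling noise, with a mean squared difference per gene of 2.64 to 31.3 times the noise. Alternatives were edgeR 4.0.16 and DESeq2 1.42.0 on recovered reads, the authors' p-values, other scalings, pseudocounts, filters, thresholds and variance models, removal of GC and length trends (natural splines with 4 degrees of freedom), a block on replicate number and fits with 1 library omitted.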

Additional observations from a re-analysis of the deposited data

How the results depend on the processing

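The 15 calls were all kept with TMM scaling, quantile scaling, pseudocounts of 0.5 and 5, mean count filters of 10 and 100, edgeR and DESeq2 on recovered reads and the authors' deposited table, of which DESeq2 and the deposited table added NAPB, PPFIA2 and SYT11 and the filter of 100 added PPFIA2 and SYT11. At an adjusted p under 0.01, 4 members were called (3 higher, 1 lower), with 2 other presynaptic genes and 640 of all genes. Without a variance trend 5 members were called (3 higher, 2 lower), with DNM3, DOC2B, ERC1, RAB3B, RAB3C, STX1A, SV2C, SYNJ1, SYT5 and SYT6 lost, and with 6 other presynaptic genes and 1105 of all genes. With GC and length trends removed, 35 other presynaptic genes were called against 20. With 1 library left out, calls ranged from 3 to 23 for members, 2 to 16 for higher, 1 to 7 for lower, 2 to 32 for other presynaptic genes and 582 to 3577 for all genes. Fits with 1 library left out rest on fewer libraries, and the cause of these shifts was not tested. Of 643 comparisons of a named gene under an alternative, 535 kept their side of the threshold, 106 lost a call, 2 gained one and 0 turned direction with a call.

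PEDS1 had a log2 fold change of -0.52 (limma adjusted p = 0.0725). It passed at -0.48 in the authors' deposited table and with DESeq2 on recovered reads, at -0.52 with quantile scaling and at -0.61 with GC and length trends removed, and ranged from -0.77 to -0.37 with 1 library left out. It passed at -0.77 without the library labelled knockout replicate 3 (adjusted p = 0.000147) and in none of the other 5 such fits.

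The labels do not state whether replicate numbers pair the libraries. Same-numbered deviations from the group means correlated at -0.30, 0.10 and -0.05 over 11705 genes. With 3 libraries a group these correlations cannot exclude a pairing. With the replicate block 14 members were called, SYT6 being lost (adjusted p = 0.0560), with 14 other presynaptic genes and 1560 of all genes.

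At this depth the median SE of a log2 fold change was 0.08 for members, against 0.11 for all genes. It was 0.09 for all genes with a mean of 100 normalized counts or more, as all members had.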
